A study of Homo sapiens with 3 samples.

Results

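The 9 genes described here code for chains of cell-surface receptors for inflammatory and antiviral cytokines: IL6R, IL6ST, IL13RA1, IL1R1, TNFRSF1A, IFNAR1, IFNAR2, IFNGR1 and IFNGR2. They were picked by name, as the rows that carry these symbols among 33538 features. Single-cell RNA was read with 10x Genomics 3' v3 chemistry in 3 libraries of stem-cell-derived alpha (SC-alpha) cells, numbered as replicates 1 to 3. The cells were differentiated from HUES8, a human embryonic stem cell line in wide use. All 3 libraries belong to 1 group with the same differentiation protocol and no treatment, so every comparison below sets cell classes against each other within libraries. The labels do not say whether the replicates came from separate differentiations, and p-values measure only the spread between these libraries, which may be technical.

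Most of these receptors work as pairs of chains. One chain usually binds the cytokine and a partner completes the signalling complex, which passes the signal through JAK kinases to STAT transcription factors, or, for IL-1 and TNF, through adaptor proteins to NF-kB. Islet endocrine cells are known to respond to IL-1, TNF and interferons, which are studied as mediators of islet inflammation in diabetes, and IL-6 is known to act on alpha cells.

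A barcode counted as a cell when it had 1000 genes or more and no more than 20% of its UMIs (counted RNA molecules) came from mitochondrial genes. This left 1160, 1027 and 1466 cells in replicates 1, 2 and 3, of 2850, 2576 and 4257 barcodes that held 30139788, 31122791 and 30980799 UMIs. Between 1 and 4 barcode sequences were shared by a pair of libraries. Cells were sorted by hallmark RNAs that are not among the 9 genes, into classes that do not overlap. TPH1-positive cells had at least 3 UMIs of TPH1, the enzyme that starts serotonin synthesis, and numbered 33, 17 and 105. INS-positive cells had at least 1% of their UMIs from INS, the insulin gene, and numbered 26, 59 and 7, of which 23, 46 and 3 also had at least 5% GCG. Collagen-positive cells had at least 5 UMIs of COL1A1, COL1A2 and COL3A1 together, with 2 of the 3 genes found, and numbered 8, 10 and 85. A further 262, 127 and 358 cells met none of the rules and are called other cells. GCG-positive cells had at least 5% of their UMIs from GCG, the glucagon gene, and numbered 828, 811 and 908. GCG at 5% or more kept a cell out of the TPH1-positive and collagen-positive classes, but not out of the INS-positive class. In each library 3 barcodes met several rules in other ways and were left out. A library entered a mean or a test where the class had at least 10 cells in it.

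Marker RNAs fitted the class rules in part. DDC and SLC18A1, which act in serotonin synthesis and storage, stood at 763 to 1074 CPM and 55.9 to 60.4 CPM in TPH1-positive cells, against 109 to 127 CPM and 0.056 to 0.41 CPM in GCG-positive cells, where CPM is a gene's share of the UMIs of the class, scaled to 1000000. LMX1A, a factor of enterochromaffin cells, was found with 0 to 2 UMIs per library in TPH1-positive cells. The 10 mesenchyme markers, 3 of them the rule's own collagens, summed to 12354, 10449 and 12091 CPM in collagen-positive cells, against 2.71, 2.69 and 14.1 CPM in GCG-positive cells. Of 7 leukocyte markers, CD3E and TYROBP had 0 UMIs in every class and PTPRC had 1 UMI in all, in TPH1-positive cells of replicate 3. CD68, a lysosomal protein used as a macrophage marker, was found at 33.0, 90.7 and 35.0 CPM in TPH1-positive cells, against 16.6, 19.6 and 9.10 CPM in GCG-positive cells. LYZ reached 367 UMIs in TPH1-positive cells of replicate 2 and at most 3 UMIs in those of replicates 1 and 3. The other cells held RNAs of several cell types. Their 6 neural markers summed to 952, 515 and 853 CPM, against 230, 168 and 308 CPM in GCG-positive cells, and their 5 duct markers to 502, 1093 and 263 CPM, against 117, 122 and 124 CPM. SST, the somatostatin gene, was at 2158, 17710.0 and 799 CPM in other cells, against 1416, 2184 and 1279 CPM in GCG-positive cells. The part of these markers in the results on other cells and on cells with little GCG was not tested.

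IL6R and IL13RA1 separated TPH1-positive from GCG-positive cells most widely and in opposite directions, so the sequence just upstream of each gene is shown here. Both windows come from RefSeq (GRCh38.p14), run 5′ to 3′ on the plus strand and stop before the start of the annotated gene, with CG dinucleotides in capitals.
IL13RA1 (chrX:118727356-118727571): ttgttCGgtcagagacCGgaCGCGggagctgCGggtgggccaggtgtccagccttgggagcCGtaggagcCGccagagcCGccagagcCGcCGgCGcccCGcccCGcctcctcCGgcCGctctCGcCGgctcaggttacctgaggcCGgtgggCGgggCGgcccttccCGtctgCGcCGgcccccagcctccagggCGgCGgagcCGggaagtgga
IL6R (chr1:154405093-154405192): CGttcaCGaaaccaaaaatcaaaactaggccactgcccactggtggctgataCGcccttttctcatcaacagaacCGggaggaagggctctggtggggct
The printed stretch of IL13RA1 has 26 CG dinucleotides in 216 bases and that of IL6R has 4 in 100 bases. Over the full 250 bases before the RefSeq start, IL13RA1 had 28 and IL6R 22, beside a median of 11 over 35116 RefSeq promoter windows of the same length. Neither full window held TTCNNNGAA, the GAS motif that STAT3 is known to bind, or 2 GAAA half-sites spaced by 2 bases, the core of the ISRE motif of type I interferon response, on either strand. GAS was present in 6.57% and ISRE in 3.02% of all windows. Among 13 windows of 8 of the 9 genes, 1 of the 4 IL1R1 windows held 1 GAS match and none held ISRE.

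**Figure D1:**
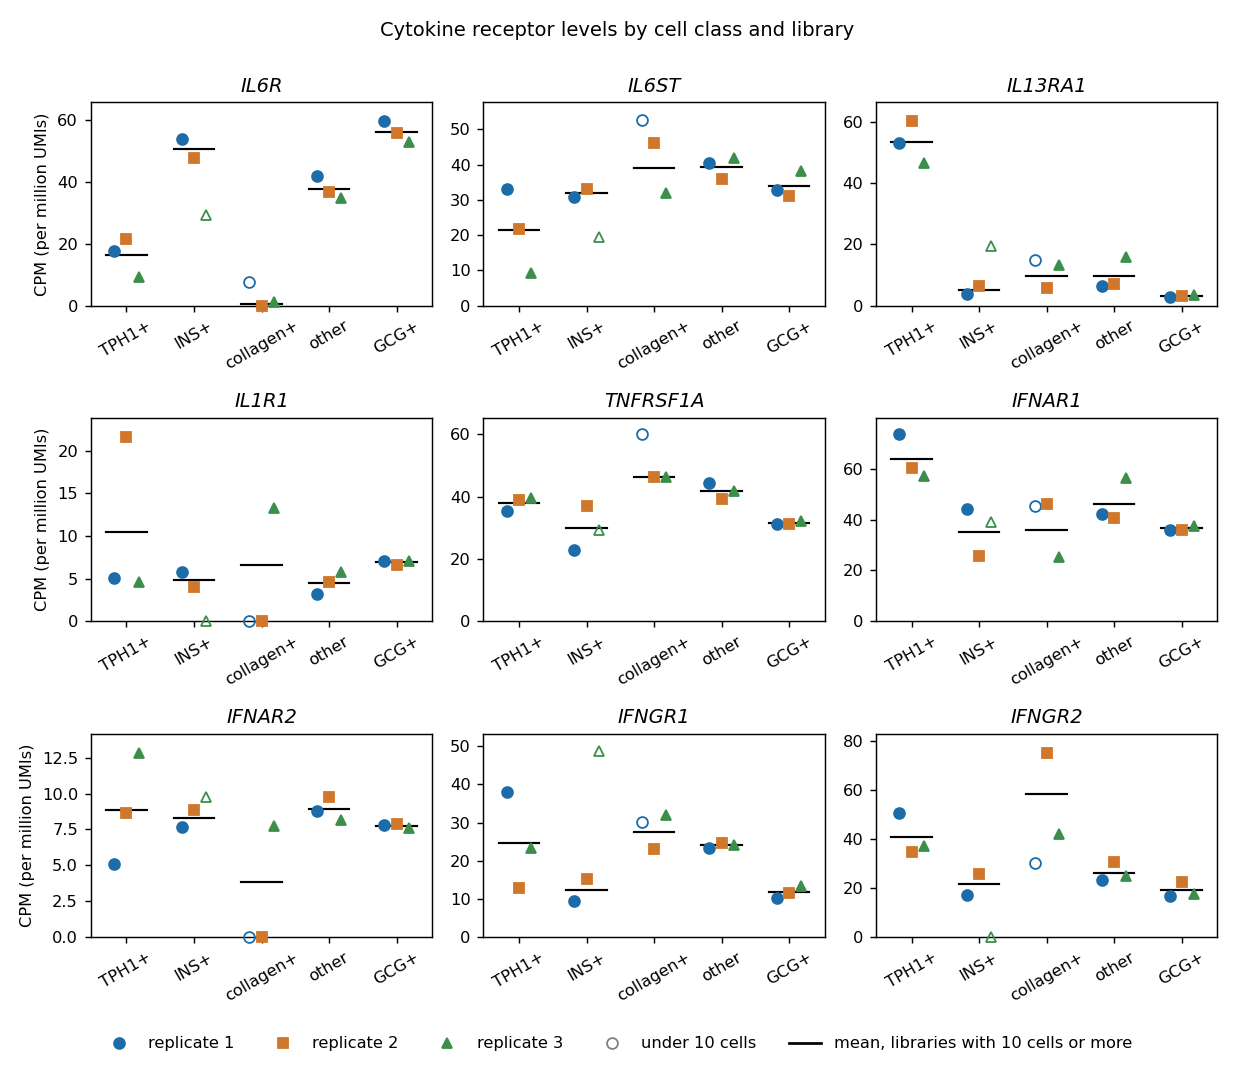
Level of each receptor gene in CPM (vertical axes, linear, each from 0) by cell class (horizontal axes), 1 point per library, with hollow points for fewer than 10 cells and a line at the mean of the other libraries. IL6R is lowest in collagen-positive and TPH1-positive cells, and IL13RA1 is between 46.7 and 60.4 CPM in TPH1-positive cells and at most 19.5 CPM elsewhere.

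The IL-6 receptor is made of IL6R, the chain that binds IL-6, and IL6ST (gp130), the signalling chain shared by the IL-6 family. IL6R had the most UMIs of the 9 genes in GCG-positive cells, and its level was lower in TPH1-positive, collagen-positive and other cells. Its level was 17.8, 21.6 and 9.33 CPM in TPH1-positive cells of replicates 1, 2 and 3 (7, 5 and 8 UMIs), against 59.5, 55.7 and 52.7 CPM in GCG-positive cells (878, 995 and 527 UMIs). The classes did not overlap in any pair of libraries. IL6R fell by 2.49 ± 0.25 (SE) on the log2 scale in TPH1-positive cells, or 5.63-fold, at an edgeR adjusted p of 2.17e-06 over 12837 genes.

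In collagen-positive cells IL6R was close to absent. It had 1, 0 and 1 UMIs there, or 7.53, 0 and 1.10 CPM. Over replicates 2 and 3, which both have at least 10 collagen-positive cells, 1 of 1079212 UMIs was IL6R in collagen-positive cells and 1522 of 27843913 in GCG-positive cells. That is a 59.0-fold lower level, with an exact 95% counting interval of 10.6 to 2332, and an edgeR adjusted p of 2.14e-13. This p rests on a spread taken from all genes, and 1 UMI tells little of the spread of IL6R itself. GCG, a gene that these cells should lack, was found at 786 and 778 CPM in collagen-positive cells of these libraries, against 161860.0 and 130055 CPM in GCG-positive cells. Over all 3 libraries IL6R had 2 UMIs in collagen-positive against 2400 in GCG-positive cells. That is a 34.1-fold lower level, with an exact 95% counting interval of 9.44 to 282.

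INS-positive cells had IL6R levels near those of GCG-positive cells. The level was 53.7, 47.6 and 29.2 CPM in INS-positive cells of replicates 1, 2 and 3, the third from 3 UMIs in 7 cells. The log2 difference over replicates 1 and 2 was -0.20 ± 0.17, at an edgeR adjusted p of 0.860. In other cells IL6R stood at 41.9, 36.5 and 34.7 CPM, below GCG-positive cells in each library. The log2 difference there was -0.94 ± 0.12, at an edgeR adjusted p of 4.22e-05, in a comparison added after the data had been seen.

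IL6ST was spread more evenly. It was found at 33.0, 21.6 and 9.33 CPM in TPH1-positive cells (13, 5 and 8 UMIs), against 32.8, 31.0 and 38.1 CPM in GCG-positive cells. The TPH1-positive level was lower in replicates 2 and 3 and level in replicate 1. The fit gave -1.44 ± 0.31 on the log2 scale at an edgeR adjusted p of 0.00411, and this call rested on replicate 3: without it the log2 difference was -0.74 at an adjusted p of 0.242. Collagen-positive cells held IL6ST at 52.7, 46.2 and 32.0 CPM and other cells at 40.5, 35.9 and 42.0 CPM, and neither class passed the test against GCG-positive cells. Between TPH1-positive and collagen-positive cells, IL6ST differed by -1.22 ± 0.42 at an edgeR adjusted p of 0.0260. INS-positive cells had 30.7, 33.1 and 19.5 CPM, the third from 2 UMIs.

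The fits scale libraries by a typical gene, which plain CPM does not. In TPH1-positive cells the median gene stood 0.40 above its GCG-positive level on the log2 CPM scale. GCG took 8099, 1723 and 2281 CPM in TPH1-positive cells, against 152559, 161860.0 and 130055 CPM in GCG-positive cells, and its part in the shift was not tested. The medians were -0.057 in INS-positive and -0.17 in collagen-positive cells. In the fits, the median over all genes was -0.019 in TPH1-positive, -0.016 in INS-positive and -0.24 in collagen-positive cells. In TPH1-positive cells a fitted log2 difference can therefore lie below the plain ratio of CPM values.

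IL13RA1 is the chain that binds IL-13 and, with IL4R, forms the receptor through which non-blood cells are known to sense IL-4 and IL-13. Among the 9 genes it had the largest difference between TPH1-positive and GCG-positive cells. It was found at 53.3, 60.4 and 46.7 CPM in TPH1-positive cells (21, 14 and 40 UMIs), against 2.85, 3.03 and 3.40 CPM in GCG-positive cells (42, 54 and 34 UMIs). Every TPH1-positive value lay above every value of any other class. The log2 difference from GCG-positive cells was 3.56 ± 0.31, or 11.8-fold, at an edgeR adjusted p of 4.02e-07, and higher in 3 of 3 libraries. In the pooled UMIs of both classes, before scaling, the ratio was 16.6, with an exact 95% counting interval of 12.3 to 22.2.

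IL13RA1 also exceeded the GCG-positive level in other cells, with 6.34, 7.18 and 15.7 CPM. The log2 difference was 1.28 ± 0.30 at an edgeR adjusted p of 0.00620, and without replicate 3 it was 0.84 at an adjusted p of 0.254. Collagen-positive cells had 15.1, 5.78 and 13.2 CPM from 2, 1 and 12 UMIs. Their log2 difference of 1.54 ± 0.83 from GCG-positive cells did not pass the test (edgeR adjusted p of 0.139). TPH1-positive cells were above collagen-positive cells by 2.03 ± 0.48, at an edgeR adjusted p of 0.00302. INS-positive cells had 3.83, 6.45 and 19.5 CPM from 2, 8 and 2 UMIs, and their log2 difference from GCG-positive cells was 0.91 ± 0.62 (edgeR adjusted p of 0.783).

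Other markers differed between TPH1-positive and GCG-positive cells as well, and their part in these results was not tested. The median share of mitochondrial UMIs was 15.5, 14.5 and 15.0% in TPH1-positive cells, against 15.0, 14.8 and 15.1% in GCG-positive cells. Summed leukocyte markers reached 1675 CPM in TPH1-positive cells of replicate 2, nearly all of it LYZ, beside 33.0 and 39.7 CPM in replicates 1 and 3 and 9.20 to 20.2 CPM in GCG-positive cells. Without replicate 2 the differences were 3.49 for IL13RA1 and -2.66 for IL6R, at edgeR adjusted p values of 5.71e-10 and 2.68e-09. SOX2, a factor of neural and early endoderm cells, was at 178, 104 and 80.5 CPM in TPH1-positive cells, against 0.81, 0.17 and 3.40 CPM in GCG-positive cells. NKX6-1, a beta cell factor, was at 22.9, 30.2 and 99.1 CPM, against at most 0.80 CPM. ADCYAP1, a neuropeptide gene, was at 249, 151 and 234 CPM, against 12.8, 13.3 and 8.60 CPM, and DLK1 at 315, 82.0 and 370 CPM, against 34.5, 26.1 and 40.3 CPM. NKX6-1, ADCYAP1 and DLK1 belong to a list of 9 beta cell markers that did not all go this way. HADH and PDX1 were also higher in TPH1-positive cells of each library, and IAPP in replicates 2 and 3. INS was at 50.8, 38.9 and 21.0 CPM, against 1389, 1577 and 399 CPM, and MAFA and G6PC2 had 0 UMIs in TPH1-positive cells. The list summed to 718, 531 and 819 CPM, against 1473, 1641 and 469 CPM. Collagen-positive cells had a lower mitochondrial share, with medians of 9.57, 10.8 and 9.29%.

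**Figure D2:**
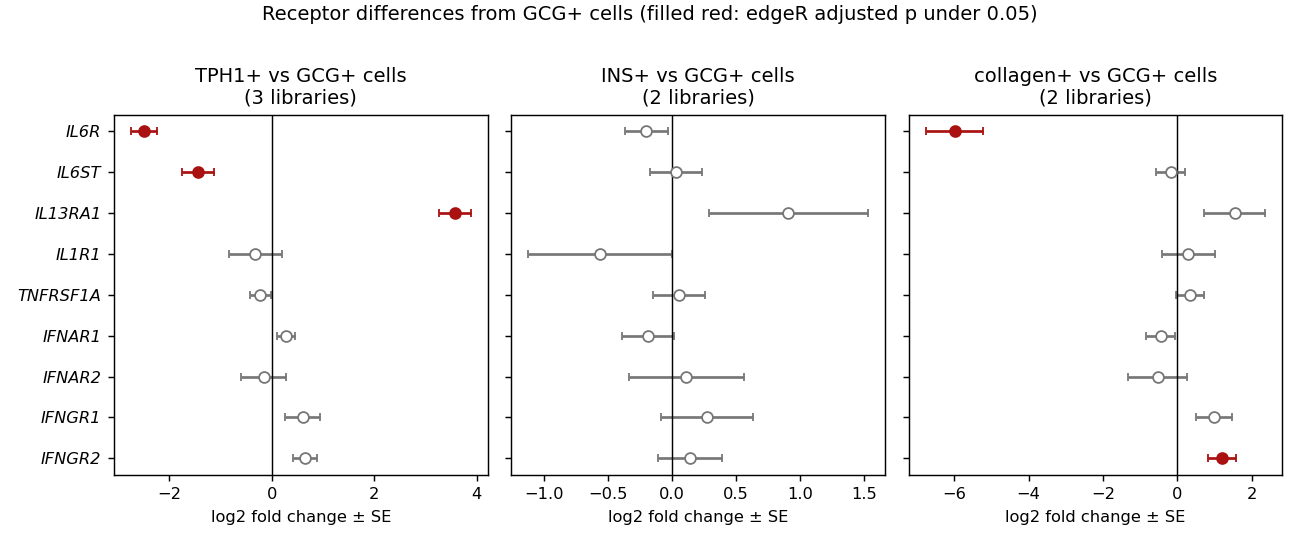
Log2 fold change (horizontal axes, points) with its SE (bars) of each receptor gene in TPH1-positive, INS-positive and collagen-positive cells against GCG-positive cells, from edgeR fits across all genes. Filled red points have an adjusted p under 0.05; the panels have different scales, and the collagen-positive IL6R point rests on 1 UMI.

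IL1R1, the signalling receptor of IL-1, was scarce. It reached 5.08, 21.6 and 4.67 CPM in TPH1-positive cells, against 7.12, 6.56 and 7.10 CPM in GCG-positive cells. The 21.6 CPM of replicate 2 came from 5 UMIs, 4 of them in 1 cell. Collagen-positive cells had 0, 0 and 12 UMIs, or 13.2 CPM in replicate 3. INS-positive cells had 5.75, 4.03 and 0 CPM. The other cells had 3.17, 4.57 and 5.83 CPM, below GCG-positive cells in each library, with a log2 difference of -0.99 ± 0.38 at an edgeR adjusted p of 0.0810, or 0.0452 without replicate 2. No comparison of IL1R1 over all libraries of a class passed the test.

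TNFRSF1A, the main TNF receptor of non-immune cells, was found in every class of every library. Its CPM values were 35.5, 38.9 and 39.7 in TPH1-positive cells, 23.0, 37.1 and 29.2 in INS-positive cells and 60.3, 46.2 and 46.3 in collagen-positive cells. They were 44.3, 39.1 and 42.0 in other cells and 31.2, 31.3 and 32.2 in GCG-positive cells. In CPM the TPH1-positive value was above the GCG-positive one in 3 of 3 libraries, whereas the fit, relative to the typical gene, gave -0.23 ± 0.20 (edgeR adjusted p of 0.568). The log2 differences from GCG-positive cells were 0.05 ± 0.20 in INS-positive cells and 0.33 ± 0.37 in collagen-positive cells, with edgeR adjusted p values of 0.989 and 0.531.

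The type I interferon receptor pairs IFNAR1 with IFNAR2, which binds interferon more tightly and exists in several forms. IFNAR1 was 73.6, 60.4 and 57.1 CPM in TPH1-positive cells, against 35.9, 36.1 and 37.5 CPM in GCG-positive cells. These CPM ranges did not overlap, and the fitted log2 difference was 0.28 ± 0.18 at an edgeR adjusted p of 0.379. Collagen-positive cells had IFNAR1 at 45.2, 46.2 and 25.4 CPM, and 5 of the 8 UMIs of replicate 2 lay in 1 cell. TPH1-positive cells differed from collagen-positive cells by 0.84 ± 0.34, at an edgeR adjusted p of 0.0526, or 0.0304 without replicate 2. INS-positive cells had 44.1, 25.8 and 39.0 CPM. Other cells had 42.2, 40.4 and 56.2 CPM, above every GCG-positive value in plain CPM. Their fitted log2 difference from GCG-positive cells was -0.023 ± 0.15, at an edgeR adjusted p of 0.942. Counted IFNAR2 RNA was scarce in every class. It stood at 5.08, 8.63 and 12.8 CPM in TPH1-positive cells, against 7.79, 7.84 and 7.60 CPM in GCG-positive cells. INS-positive cells had 7.67, 8.88 and 9.75 CPM and other cells 8.80, 9.79 and 8.16 CPM. IFNAR2 had 0, 0 and 7 UMIs in collagen-positive cells, and no comparison of it passed the test.

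The type II interferon receptor consists of IFNGR1, which binds interferon gamma, and IFNGR2, which completes the signalling complex. In plain CPM, over libraries with at least 10 cells of a class, both chains had their lowest mean in GCG-positive cells. IFNGR2 was 30.1, 75.1 and 41.9 CPM in collagen-positive cells (4, 13 and 38 UMIs), against 16.9, 22.7 and 17.7 CPM in GCG-positive cells. All 3 collagen-positive values lay above all GCG-positive values. The log2 difference over replicates 2 and 3 was 1.21 ± 0.38, or 2.31-fold, at an edgeR adjusted p of 0.00545. The call ended without the cell with most IFNGR2 UMIs of each library (0.85, adjusted p of 0.0846) and with DESeq2 (1.19, adjusted p of 0.130). In TPH1-positive cells IFNGR2 stood at 50.8, 34.5 and 37.3 CPM, above GCG-positive cells in 3 of 3 libraries, with a log2 difference of 0.65 ± 0.24 at an edgeR adjusted p of 0.0907. INS-positive cells had 17.3, 25.8 and 0 CPM and other cells 23.2, 30.7 and 24.8 CPM. Their fitted log2 differences from GCG-positive cells were 0.14 ± 0.25 and 0.090 ± 0.15, with edgeR adjusted p values of 0.967 and 0.728.

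IFNGR1 was 23.2, 24.8 and 24.2 CPM in other cells, against 10.2, 11.5 and 13.5 CPM in GCG-positive cells. The ranges did not overlap, and the log2 difference was 0.66 ± 0.18 at an edgeR adjusted p of 0.0147, or 0.61 at 0.161 without replicate 1. IFNGR1 was 38.1, 13.0 and 23.3 CPM in TPH1-positive cells, where the second value came from 3 UMIs, and 30.1, 23.1 and 32.0 CPM in collagen-positive cells. Neither difference from GCG-positive cells passed the test, with 0.60 ± 0.34 (edgeR adjusted p of 0.299) and 0.98 ± 0.48 (0.0967). INS-positive cells had 9.59, 15.3 and 48.7 CPM, the third from 5 UMIs in 7 cells. Their log2 difference over replicates 1 and 2 was 0.27 ± 0.36, at an edgeR adjusted p of 0.940.

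Counted over the 9 genes, TPH1-positive cells had 1 gene higher (IL13RA1) and 2 lower (IL6R, IL6ST) than GCG-positive cells, beside 6.5% of all tested genes called higher and 7.67% called lower (14.2% in either direction). In collagen-positive cells 1 was higher (IFNGR2) and 1 lower (IL6R), beside 16.4% of all tested genes higher and 19.0% lower (35.4% in either direction). In other cells 2 were higher (IL13RA1, IFNGR1) and 1 lower (IL6R), beside 11.7% and 7.8% of all tested genes (19.5% in either direction). TPH1-positive cells had 2 of the 9 higher (IL6R, IL13RA1) and 1 lower (IL6ST) than collagen-positive cells, beside 25.3% and 18.9% of all tested genes (44.2% in either direction). Without replicate 3 the edgeR adjusted p values of these genes were 0.111, 0.0625 and 0.315, while the differences kept their signs. That of IL13RA1 was then 3.15 and that of IL6ST -0.97, and IL6R had 5 UMIs in TPH1-positive against 0 in collagen-positive cells of replicate 2. In INS-positive cells edgeR called 0 of 9, beside 0.862% of all tested genes called higher and 0.465% called lower (1.33% in either direction), and 0 had an unadjusted p under 0.05. DESeq2 also called 0 there, with an adjusted p not given for 8 of 9. Only 2 libraries had enough cells for the INS-positive and collagen-positive tests against GCG-positive cells. Their edgeR p-values rest on a spread taken from all genes and do not measure each gene's own spread between libraries. Each of these counts rests on at most 3 of the 9 genes.

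Within GCG-positive cells the 9 genes were ordered by counted UMIs, which in a 3' library do not grow with RNA length. The share of molecules counted can differ between genes, so this is an order of counts. The mean ± SD over 3 libraries was 56.0 ± 3.40 CPM for IL6R, 36.5 ± 0.880 CPM for IFNAR1, 34.0 ± 3.71 CPM for IL6ST and 31.6 ± 0.541 CPM for TNFRSF1A. It was 19.1 ± 3.15 CPM for IFNGR2, 11.7 ± 1.68 CPM for IFNGR1, 7.75 ± 0.127 CPM for IFNAR2, 6.93 ± 0.320 CPM for IL1R1 and 3.09 ± 0.283 CPM for IL13RA1. Neighbours in this order overlapped over libraries for IFNAR1 with IL6ST and for IL6ST with TNFRSF1A. IL6R ranked 1920th, 2070th and 2301st among the 19331, 19766 and 18689 genes with a UMI in these cells, and IL13RA1 11600th, 11425th and 11137th.

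**Figure D3:**
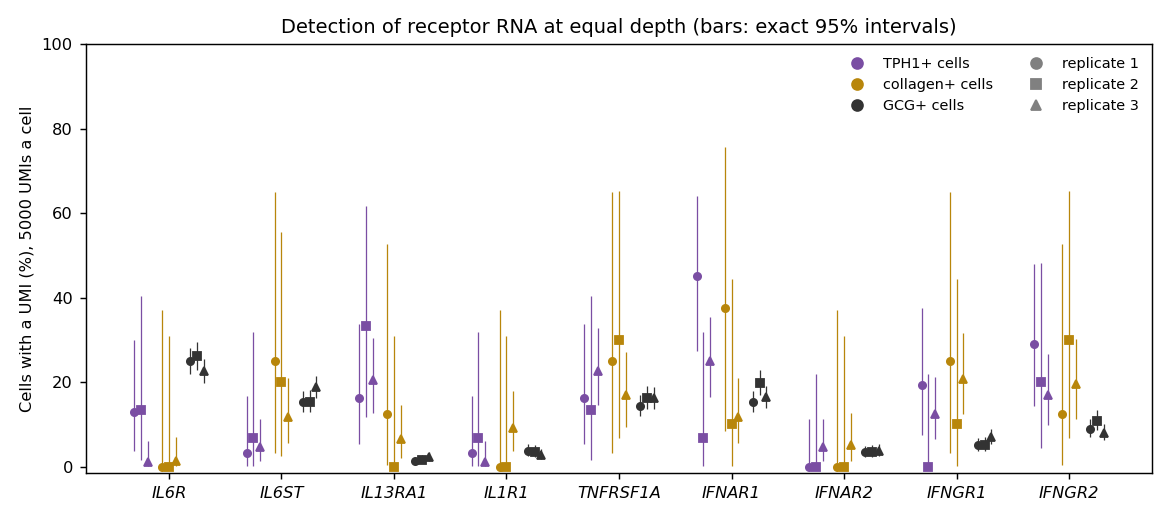
Share of cells with at least 1 UMI of each receptor gene (vertical axis, percent) after each cell was drawn down to 5000 UMIs, for TPH1-positive, collagen-positive and GCG-positive cells of each library, with exact Clopper-Pearson 95% intervals. GCG-positive cells hold IL6R in 22.6 to 26.1% of cells and IL13RA1 in at most 2.22%, and TPH1-positive cells hold IL13RA1 in 16.1 to 33.3%.

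Detection per cell was compared at 5000 UMIs a cell, since median depth was 11190, 13903 and 8067 UMIs in TPH1-positive cells and 16438, 21781 and 10481.5 UMIs in GCG-positive cells. The step left 31, 15 and 88 TPH1-positive and 791, 729 and 855 GCG-positive cells. IL13RA1 was then found in 16.1, 33.3 and 20.5% of TPH1-positive cells, against 1.26, 1.51 and 2.22% of GCG-positive cells. The exact 95% intervals of the classes did not overlap in any library. Before thinning the shares were 39.4, 47.1 and 24.8% in TPH1-positive cells and 4.83, 6.29 and 3.63% in GCG-positive cells.

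IL6R was found in 12.9, 13.3 and 1.14% of thinned TPH1-positive cells, against 24.9, 26.1 and 22.6% of thinned GCG-positive cells. The intervals overlapped in replicates 1 and 2 and were apart in replicate 3. In thinned collagen-positive cells it was found in 0 of 8, 0 of 10 and 1 of 77 cells, at a median depth of 15411.5, 15194.5 and 9299 UMIs before thinning. The exact 95% upper limits of the first 2 shares are 36.9 and 30.8%. The 77 cells of replicate 3 give 1.30%, with an exact 95% interval of 0.0329 to 7.02%. Before thinning, 58.0, 59.9 and 41.9% of GCG-positive cells had an IL6R UMI. The 5% of GCG-positive cells with most IL6R held 22.4, 22.2 and 24.3% of its UMIs, and no cell held more than 10.

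Paired chains were seldom caught in the same cell at this depth. IL6R and IL6ST were found together in 3.29, 4.53 and 4.56% of thinned GCG-positive cells, beside 3.81, 4.00 and 4.22% as the product of their single shares. IFNGR1 and IFNGR2 were found together in 0, 2 and 7 of these cells, and IFNAR1 and IFNAR2 in 3, 6 and 4. IL13RA1 met IL4R in 0, 0 and 1 cells, and IL1R1 met IL1RAP, its accessory chain, in 0, 2 and 0. All these shares lay within counting error of the product of the single shares.

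**Figure D4:**
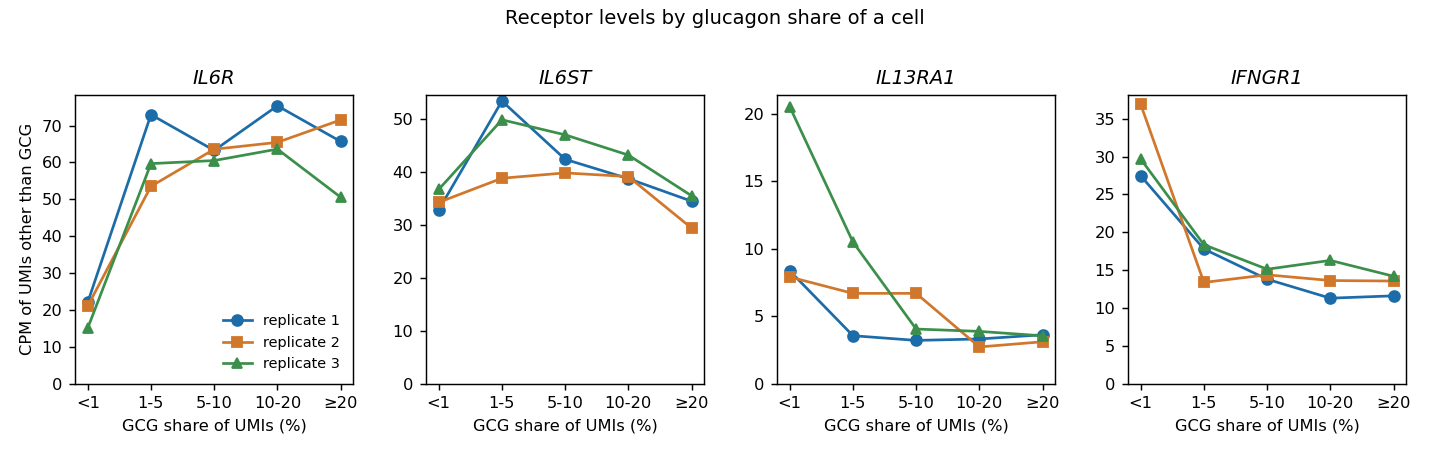
Level of IL6R, IL6ST, IL13RA1 and IFNGR1 (vertical axes, CPM of UMIs other than GCG, from 0) by the share of a cell's UMIs that is GCG (horizontal axes, 5 bins), 1 line per library, over other cells and GCG-positive cells. IL6R is between 15.1 and 22.1 in the lowest bin and at least 50.6 in the rest, and IFNGR1 is highest in the lowest bin in all 3 libraries.

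Across GCG-positive and other cells, the receptors were also followed by the GCG share of a cell, with CPM taken over UMIs other than GCG so that GCG itself does not lower them. IL6R averaged 19.4 ± 3.77 (SD, n = 3) in cells under 1% GCG, 62.1 ± 9.93 at 1 to 5%, 62.5 ± 1.68 at 5 to 10%, 68.1 ± 6.32 at 10 to 20% and 62.6 ± 10.8 at 20% or more. The step lay at the lowest bin, and the upper 4 bins ranged between 50.6 and 75.4 over libraries. IL13RA1 averaged 12.3 ± 7.15, 6.92 ± 3.47, 4.65 ± 1.82, 3.31 ± 0.576 and 3.43 ± 0.280 over the same bins. IFNGR1 averaged 31.4 ± 4.93 in the lowest bin and between 13.1 and 16.5 in the rest. TNFRSF1A averaged 46.1 ± 2.28 in the lowest and 30.8 ± 3.81 in the highest bin. These values are a description with no test. Cells under 1% GCG numbered 127, 50 and 180.

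The genes closest to each receptor in pattern were named by Pearson correlation of log2 (CPM + 10) over 13 sums of class and library, among 6408 genes. The sums share libraries and depth, and r is given as a description. For IL6R they were GRIA3 (r = 0.985), a glutamate receptor subunit, and SLC7A2 (0.981), a transporter of cationic amino acids. For IL13RA1 they were FAM171A1 (0.973) and PCDH9 (0.968), a protocadherin. For IFNGR2 COMMD3 (0.953) was among them, and for IFNGR1 they were NDUFAF3 (0.921) and GPATCH2 (0.914). For TNFRSF1A they were CDK5RAP2 (0.954) and YWHAQ (0.950), for IFNAR1 DAG1 (0.931) and CHD6 (0.930), and for IFNAR2 PHF12 (0.951) and ZNF609 (0.917). IL6ST was closest to MEIS3 (0.895) and LAPTM4B (0.807), and IL1R1 to MBD3 (0.805) and XRCC1 (0.802).

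The other genes of these pathways were read from 6 lists with 111 entries, with calls at an edgeR adjusted p under 0.05 over all genes. In TPH1-positive against GCG-positive cells, 1 of 14 tested cytokine receptors outside the 9 was higher and 1 lower, beside 6.5% of all tested genes higher and 7.67% lower, with a median log2 difference of -0.035 beside -0.019 over all genes. IL20RA, a chain of IL-20 family receptors, was higher by 2.27 ± 0.61, at an edgeR adjusted p of 0.0176, from 5, 1 and 11 UMIs. IL4R had 0, 0 and 2 UMIs in TPH1-positive cells, against 104, 114 and 64 UMIs in GCG-positive cells, and was called lower at an edgeR adjusted p of 0.0239. IL4R is the partner chain of IL13RA1. With DESeq2 the adjusted p of IL4R was 0.127.

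Of 10 tested JAK and STAT genes, JAK1 was higher in TPH1-positive cells by 0.59 ± 0.15 and STAT4 lower, with 2, 1 and 0 UMIs against 144, 169 and 83 in GCG-positive cells. Of 12 feedback genes, SOCS2, an inhibitor of cytokine signalling, was higher by 4.36 ± 0.63 from 7, 1 and 15 UMIs. USP18, an inhibitor of type I interferon signalling, was lower at -1.24 ± 0.20 and SOCS6 at -0.94 ± 0.29. Of 19 TNF, IL-1 and NF-kB genes 2 were higher, IKBKG (1.13 ± 0.35) and NFKB1 (0.84 ± 0.21). Of 12 interferon targets 1 was higher, IFIT3, from 3, 1 and 4 UMIs in TPH1-positive cells against 10, 5 and 1 in GCG-positive cells. The list medians were -0.090, -0.14, 0.22 and 0.60, beside -0.019 over all genes, of which 6.5% were called higher and 7.67% lower. SOCS2 and USP18 kept an edgeR adjusted p under 0.05 without any single library. DESeq2 called 4 of the 10 genes, SOCS2 (adjusted p of 1.15e-07), USP18 (0.00341), IFIT3 (0.00639) and IL20RA (0.0351). Each of the other 8 edgeR calls missed the threshold without 1 library, while the direction stayed. Without replicate 1 IL4R was at -2.30 (edgeR adjusted p of 0.118), JAK1 at 0.49 (0.0880) and NFKB1 at 0.55 (0.253). Without replicate 3 IL20RA was at 1.72 (0.356), STAT4 at -1.57 (0.288), SOCS6 at -0.90 (0.197), IKBKG at 0.98 (0.369) and IFIT3 at 3.03 (0.225).

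In collagen-positive cells, 5 of 14 tested other receptors were higher and 0 lower, beside 16.4% of all tested genes higher and 19.0% lower, with a median of 0.26 beside -0.24 over all genes. IL11RA, the IL-11 receptor that signals through IL6ST, was found with 31, 24 and 171 UMIs, and rose by 3.22 ± 0.32 over GCG-positive cells. TNFRSF12A, the receptor of TWEAK, rose by 4.43 ± 0.36, and FAS, a death receptor, by 4.68 ± 0.92. IL13RA2, a decoy receptor of IL-13, was called higher by 2.61 ± 0.99, from 0, 0 and 9 UMIs against 35, 33 and 7 in GCG-positive cells. In CPM it was higher only in replicate 3. Of 14 interferon targets 5 were higher, among them IFITM3, which restricts virus entry, with 88, 139 and 308 UMIs against 2, 4 and 19 UMIs in GCG-positive cells. IFITM1 had 1, 17 and 13 UMIs against 0, 0 and 3, and GBP1 had 0, 3 and 13 UMIs against 0, 0 and 1.

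Feedback genes went both ways in collagen-positive cells, with 3 of 14 higher and 2 lower. For these and the next lists, 16.4% of all tested genes were called higher and 19.0% lower. SOCS1 had 11, 1 and 43 UMIs against 3, 5 and 8 UMIs in GCG-positive cells, and SOCS3, which is known to bind IL6ST, had 1, 4 and 14 UMIs against 0, 2 and 1. PTPN6, a phosphatase that restrains cytokine receptors, had 1, 0 and 0 UMIs against 196, 218 and 123 and was called lower. Of 10 JAK and STAT genes 2 were lower, STAT4 with 0 UMIs in each library and STAT5B at -1.42 ± 0.56. Of 19 TNF, IL-1 and NF-kB genes, RELB (2.45 ± 0.78) and NFKBIA (1.30 ± 0.37) were higher. Several of these calls missed the threshold with 1 library fewer, while the direction stayed in each fit available. IL13RA2 had no fit with replicate 2 alone, where it had 0 UMIs in collagen-positive against 33 in GCG-positive cells. With replicate 3 alone IL13RA2 was at 2.08 (edgeR adjusted p of 0.164) and RELB at 0.66 (0.565). With replicate 2 alone STAT5B was at -2.41 (0.106), and PTPN6 and STAT4, with 0 UMIs in these cells, had adjusted p values of 0.0858 and 0.144. DESeq2 called 9 of the 19 genes that edgeR called over the 6 lists, and not IL13RA2 (adjusted p of 0.661), STAT5B (0.247), RELB (0.146), STAT4 (0.125), NFKBIA (0.0882) or PTPN6 (0.0535). The medians of interferon targets, feedback, JAK and STAT, and NF-kB lists were 0.61, -0.64, -0.93 and -0.61, beside -0.24 over all genes. In INS-positive cells edgeR called 0 genes in any of the 6 lists, with 4 of 69 at an unadjusted p under 0.05. DESeq2 also called 0 there, with 0 at an unadjusted p under 0.05. Of 16 ligand genes on the list, 1 had enough counts to be tested in each of the TPH1-positive, INS-positive and collagen-positive comparisons, and it was not called.

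On GRCh38 with GENCODE v29, the genes lie at chr1:154405193-154469450 on the plus strand (IL6R), chr5:55935095-55994993 on the minus strand (IL6ST), chrX:118727572-118794539 plus (IL13RA1) and chr2:102064544-102179874 plus (IL1R1). TNFRSF1A lies at chr12:6328757-6342114 minus and IFNGR1 at chr6:137197484-137219449 minus. IFNAR2, IFNAR1 and IFNGR2 lie in this order along chromosome 21, at 33229901-33265675, 33324477-33359862 and 33402896-33479348, all on the plus strand. IFNGR2 overlaps TMEM50B on the other strand, which had 621, 683 and 481 UMIs in kept cells beside 349, 510 and 334 of IFNGR2. IL6R overlaps IL6R-AS1 on the other strand, with 37, 60 and 36 UMIs beside 1034, 1117 and 661. Whether the counting used strand is not given in the sources used here, and if it did not, reads of these pairs cannot be told apart. IFNAR2 shares its strand and annotated start with AP000295.1, a protein-coding gene that had 0 UMIs in each library. Whether reads that fit both genes were left out, which would lower IFNAR2, was not tested.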

How the data were processed

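The deposited files are matrices of UMI counts, by gene and barcode, without normalization. The authors made them with Cell Ranger 4.0.0 against GRCh38 per the submitters' processing notes; the annotation version is not given in the sources used here. Counts were summed per library and class over kept barcodes. Doublets were not removed; Scrublet marked 18, 11 and 18 cells, and leaving them out is an alternative. Classes were compared with edgeR 4.0.16 quasi-likelihood tests (R 4.3.3, TMM factors, filterByExpr, library as block because both sums come from 1 library), with Benjamini-Hochberg adjustment over all tested genes at 0.05; the SE is the log2 fold change over the square root of F. DESeq2 1.42.0 was an alternative. The script was tested on simulated counts. Python 3.11.15, scanpy 1.11.5, scipy 1.17.1 and matplotlib 3.10.9 were used. Exact 95% intervals (Clopper-Pearson, Poisson) cover counting error only. Named genes are the 9 receptors, up to 4 called genes per list with the largest change, and the 2 closest in pattern per receptor, 1 of which is not reported here. The genes, lists, classes and tests were chosen with earlier results of these data known, and the comparisons of other cells and of TPH1-positive with collagen-positive cells, in 1 fit of all 5 classes, after the values were seen.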

Additional observations from a re-analysis of the deposited data

How the results depend on the processing

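Comparisons with GCG-positive cells were recomputed under 16 alternatives for TPH1-positive and 15 for INS-positive and collagen-positive cells (14 for IL13RA1), and the 2 added comparisons without each library only; differences are on the log2 scale against GCG-positive cells. In TPH1-positive cells IL6R (-3.13 to -2.16) and IL13RA1 (3.24 to 3.71) were called in all, and IL6ST in 15. IFNGR2, not called in the report, was called without replicate 2 and at a 30% mitochondrial limit (0.79, edgeR adjusted p of 0.00408). Leaving out single libraries turned IL1R1 (-1.03 to 0.18) and IFNAR2 (-0.84 to 0.11). No member was called in INS-positive cells under any alternative, and many signs turned there. IL6ST stood at -0.0021 with no filter, -0.18 at a 30% mitochondrial limit, -0.017 with stricter class thresholds, -0.042 with at least 5 cells, -0.094 with all classes in one fit, -0.16 without the top cell, and -0.12 to -0.024 without single libraries. TNFRSF1A stood at -0.022 with DESeq2, -0.15 at 30%, -0.24 with stricter thresholds, -0.22 when thinned, -0.024 with all classes, -0.13 without the top cell, and -0.40 to 0.23 without single libraries. IFNGR2 stood at -0.087 with stricter thresholds, -0.21 thinned and -0.0082 without the top cell, IFNAR2 at -0.065 with stricter thresholds and -0.35 without the top cell, and IFNAR1 at 0.19 with stricter thresholds and -0.48 to 0.38 without single libraries. IFNGR1 was -1.09 and IL6R 0.044 when thinned, and IFNGR1 -0.15 to 0.37 without single libraries. IL13RA1 was -0.058 when INS-positive cells were limited to those with at least 5% GCG (23, 46 and 3 cells). In collagen-positive cells IL6R was called in all 15 and IFNGR2 in 13, while IL13RA1 and IFNGR1 became called in 5 each. IL1R1 turned to -0.49 with DESeq2, -0.071 at 30%, -0.098 with at least 5 cells and a range of -8.04 to 0.69 without single libraries, IFNAR2 to 0.13 when thinned, and without single libraries IL6ST ran from -0.28 to 0.25 and IFNAR1 from -0.71 to 0.074. Leave-one-out values of INS-positive and collagen-positive cells leave 1 library, assumed to vary like the other classes. The same holds for collagen-positive cells with 2000 genes as the minimum, which left 8, 9 and 75 cells, so only replicate 3 entered. Over all genes, DESeq2 called 1116 genes in TPH1-positive, 34 in INS-positive and 2313 in collagen-positive cells, where edgeR called 1819, 177 and 4687. Thinning gave 29 and 2695 in INS-positive and collagen-positive cells, all classes in one fit 3 in INS-positive cells, and leaving out single libraries 1 to 9 in INS-positive and 2822 to 6006 in collagen-positive cells. Dropping the replicate block, which pairs sums of the same library, gave 18 calls in INS-positive cells. In collagen-positive cells it gave 4 of the 9 receptors, as did all classes in one fit, against 2 in the report. DESeq2 and leaving out the top cell gave 1, and leaving out single libraries 2 to 4. For other against GCG-positive cells IFNAR1 ran from -0.16 to 0.093, and for TPH1-positive against collagen-positive cells IL1R1 ran from -1.76 to 8.22 and IFNGR1 from -0.84 to 0.14, without single libraries. The causes were not tested. IL13RA1 had too few counts for a thinned fit in INS-positive and collagen-positive cells. The added alternatives (5 cells, all classes, top cell) were chosen after seeing the data. Depth limits IL1R1, IFNAR2 and the 9 receptors in collagen-positive cells of replicates 1 and 2, which rest on at most 13 UMIs a gene. Of 45 shares of cells with a UMI, 41 moved by more than the spread over libraries when 2 UMIs were asked for, 39 after thinning, 11 with 2000 genes as the minimum, 10 at a 30% mitochondrial limit and 1 without doublets.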
